A study of Rattus norvegicus with 154 samples.

Results

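The lungs of rats exposed to 6 mg of sulfur mustard in isopropyl alcohol were compared, 6 h after exposure, with the lungs of rats that had received isopropyl alcohol alone (0 mg). The animals were chosen by their labels, 3 at 6 mg and 3 at 0 mg, of 77 in the series, and each animal had 2 chips, A and B, so that 12 of the 154 arrays enter this comparison. The chips of an animal were technical repeats and were averaged. Sulfur mustard, bis-(2-chloroethyl) sulfide, is an alkylating agent, and both groups carried the same vehicle. The labels give the tissue as lung and the sample as total RNA. They give the dose in mg without a body weight, and no strain, age, sex or route is stated. Beside these animals, 3 saline animals and 3 animals each at 1 mg and 3 mg were sampled at 6 h, and the 6 mg and isopropyl alcohol groups were also sampled at 3 h and 24 h, with 3 animals each.

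Sulfur mustard forms adducts on DNA, RNA and protein and links the strands of DNA. Damaged DNA stabilises the transcription factor p53, which raises genes that stop the cell cycle or start cell death, and bulky lesions block RNA polymerase II on the template. The agent also consumes glutathione, and depletion of glutathione or attack on protein thiols activates Nrf2, the transcription factor of antioxidant genes. In the lung, epithelial and endothelial cells of the airways and capillaries are its known targets.

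At 6 h the largest rises among the named genes were those of Atf3, a stress transcription factor, of the p53 targets Cdkn1a and Ccng1, and of Srxn1, an antioxidant gene. The largest falls were those of Pard3, a polarity scaffold, Ttc28, Veph1, Arl15, a small GTPase, and Ankrd44. In the limma fit 2025 of 11106 probe sets passed an adjusted p of 0.05, which is 18.2% of those tested. Without 6 mg replicate 2 the number was 1254. Taking 1 probe set per gene, 597 of 8042 genes were higher (7.42%) and 893 were lower (11.1%). The animals of the 2 groups did not overlap in 1518 genes that were higher (18.9%) and in 1740 that were lower (21.6%), whether or not these passed the test. These shares are the background for the counts given for each gene list below. A lower level in whole lung can reflect fewer cells of a type or less RNA per cell, and these cannot be told apart. The median log2 fold change over all genes was -0.02. Large changes were few: 51 of the genes that passed rose and 153 fell at least 2-fold, and 3 rose and 7 fell at least 4-fold. Of 256 genes that passed and had several probe sets, all other probe sets had the same sign in 208, and 1 gene had another probe set that passed in the opposite direction.

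The arrays of the groups were scanned on different days. The arrays of the 6 mg group shared 1 pair of scan days, the 9th and 10th of 17, with 1 saline animal (replicate 3), 1 animal at 1 mg and 1 at 3 mg. Those of the isopropyl alcohol group came from the 3rd and 7th, the 4th and 7th, and the 13th and 14th days, so no pair of days held both groups. Scan day and dose therefore cannot be told apart from these 6 animals alone. The log2 ratio of 3' to 5' beta-actin probe sets, a measure of RNA integrity, was 1.33, 1.80 and 1.79 at 6 mg and 0.72, 1.04 and 0.43 in isopropyl alcohol, which do not overlap (p = 0.1 by a two-sided exact permutation test, which is its lower limit with 3 animals a group). The saline animal of the same days had a ratio of 1.96. The ratio for GAPDH averaged 0.94 ± 0.24 at 6 mg and 0.62 ± 0.53 in isopropyl alcohol (SD, n = 3, exact permutation p = 0.5), and with it as a covariate 2185 probe sets were called. With the beta-actin ratio as a covariate 1901 probe sets were called, 1630 of them shared in direction with the 2025. A fit with scan days as a block, which draws on the other animals of each day, called 1494 probe sets, of which 1196 were shared with the 2025 in the same direction. Set against the saline animal of the same days alone, a comparison chosen after seeing the data in which that animal is assumed to vary like the other groups, 864 were called and 686 were shared. With either alternative no probe set was called in the opposite direction. Of 88 list members called higher, 47 kept the call with the block and 31 against that saline animal. Of 85 list members called lower, 60 kept the call with the block and 34 against that saline animal. Among genes whose animal values are given below, Hspa5 and Glul did not pass in either alternative, and Dnajb4, Psmd13, Ripk1, Ryk, Hk1, Cyp51 and Fbn1 did not pass against the saline animal. Other such calls are noted beside the gene, in some cases for the block alone. Errfi1, Mmp14, Cldn5 and Cd3d, whose animal values are also given, stood at 0.86, 0.26, 0.62 and -0.47 against the saline animal.

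**Figure D1:**
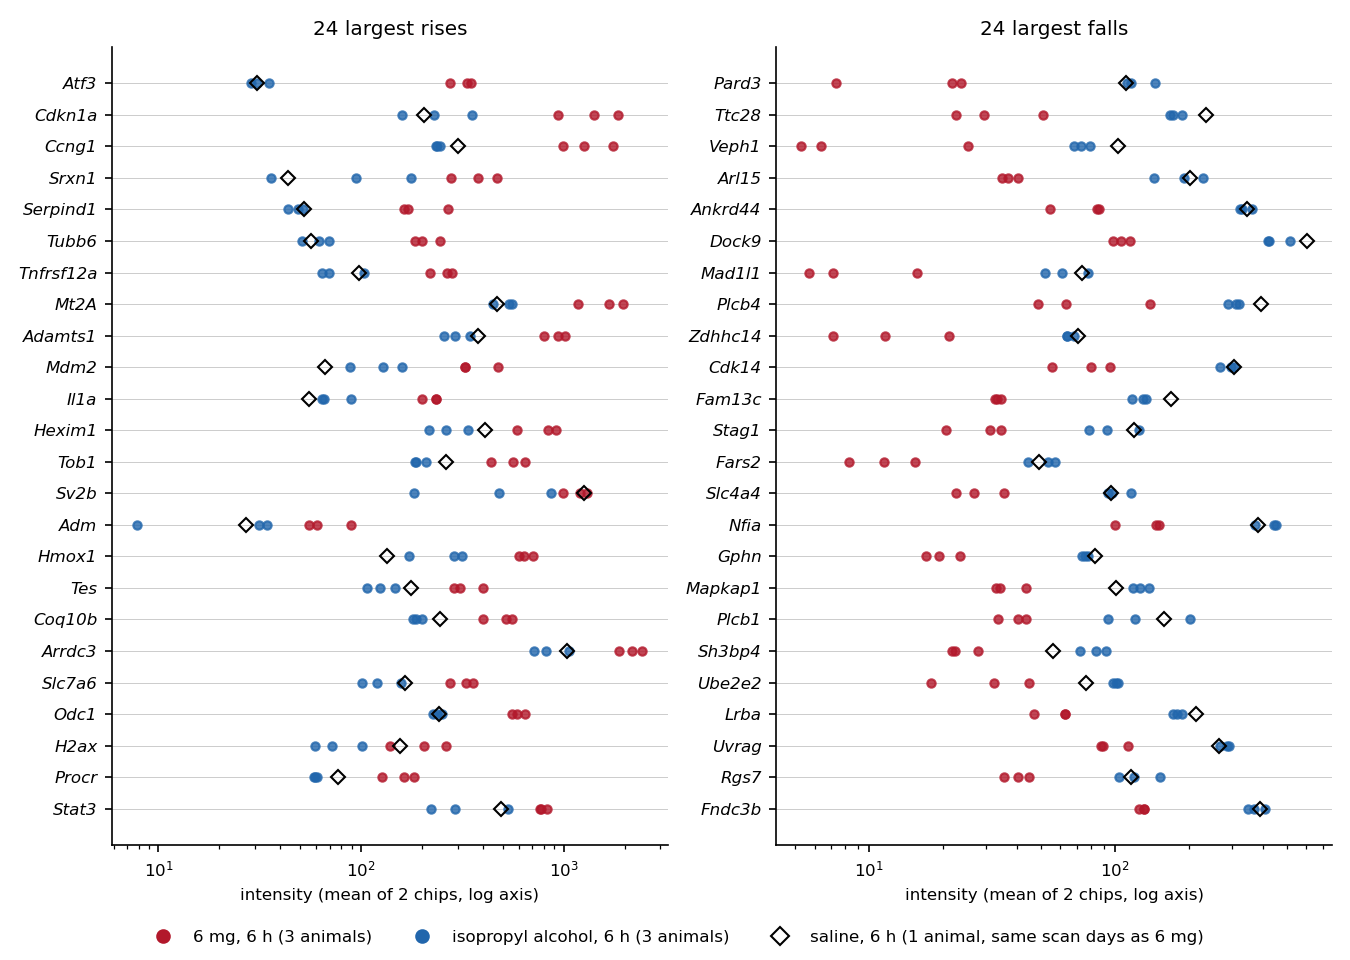
Intensity on a log axis of the 24 genes with the largest rises (left) and the 24 with the largest falls (right) at 6 h; each point is 1 animal (mean of its 2 chips), red for 6 mg, blue for isopropyl alcohol, and open diamonds for the saline animal scanned on the same days as the 6 mg animals. The red and blue points do not overlap in any row, as the choice of genes requires, and the saline animal lies among or beyond the 6 mg animals for Sv2b and H2ax.

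The plot of the 48 genes shows those with the largest changes among genes that passed the test, did not overlap between groups and reached a mean intensity of 50 in the higher group. The separation of their groups follows from that choice, and it is no added support where it is described for any of these 48 genes below. Against the saline animal of the same days 47 of the 48 kept their sign and 41 kept their call, and with scan days as a block 48 kept their sign and 46 their call.

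The p53 response was led by Ccng1, Cdkn1a and Mdm2. Ccng1, which encodes cyclin G1, had intensities of 993, 1749 and 1264 in the 6 mg animals and 235, 238 and 246 in the isopropyl alcohol animals, and rose 5.31-fold (log2 fold change 2.41 ± 0.20, adjusted p = 4.24e-13). The control animals lay within a narrow band, and the lowest 6 mg animal stood far above it. Cdkn1a, which encodes the cyclin-dependent kinase inhibitor p21, had 1418, 937 and 1858 at 6 mg and 355, 159.6 and 229.8 in isopropyl alcohol, and rose 5.62-fold (log2 fold change 2.49 ± 0.40, adjusted p = 3.49e-06). The spread among the 6 mg animals was wide, and its lowest value was still above the highest control. Mdm2, the ubiquitin ligase that degrades p53, had 325, 476 and 324 against 128, 88.5 and 159.9 and rose 2.91-fold (log2 fold change 1.54 ± 0.29, adjusted p = 4.89e-05). Phlda3, an inhibitor of Akt, rose 2.09-fold, with 449, 673 and 575 against 326, 259 and 219. Plk2, a polo-like kinase, and Ei24, a p53-induced membrane protein of the endoplasmic reticulum, rose by smaller amounts, with log2 fold changes of 0.72 ± 0.19 and 0.54 ± 0.11 (SE). Among 17 measured p53 targets 7 were higher and none lower, and the median log2 fold change was 0.46. With scan days as a block 6 were higher, with a median of 0.35, and the call that ended was that of Ptp4a1, a phosphatase gene (0.46 ± 0.17 before, adjusted p = 0.206 with the block).

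The promoters of Ccng1 and Cdkn1a are shown because these genes rose together and each holds a match to the p53 half-site within the window searched. The windows are the 250 bases before the annotated start in RefSeq on GRCr8, at chr10:25684877-25685126 on the minus strand for Ccng1 and chr20:7150682-7150931 on the plus strand for Cdkn1a, written 5′ to 3′ in the gene's direction with the matched bases in capitals.
Ccng1: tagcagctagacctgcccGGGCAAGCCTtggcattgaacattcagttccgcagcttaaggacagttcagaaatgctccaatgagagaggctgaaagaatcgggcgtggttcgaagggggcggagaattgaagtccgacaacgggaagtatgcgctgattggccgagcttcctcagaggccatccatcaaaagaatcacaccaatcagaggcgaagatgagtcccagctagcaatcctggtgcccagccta
Cdkn1a: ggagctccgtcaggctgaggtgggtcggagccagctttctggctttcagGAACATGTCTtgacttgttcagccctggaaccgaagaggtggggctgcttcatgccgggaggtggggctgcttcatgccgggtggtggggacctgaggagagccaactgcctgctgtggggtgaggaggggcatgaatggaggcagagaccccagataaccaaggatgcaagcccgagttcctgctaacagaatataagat
The half-site was searched on both strands by its consensus. The match begins 232 bases before the start of Ccng1 and 201 bases before that of Cdkn1a, and neither overlaps the other motifs searched. Such a match occurred in 381 of 6713 windows of tested genes (5.68%), in 5 of the 15 windows of the p53 target list, in 4 of 21 windows of the genes with the largest rises and in 1 of 24 of those with the largest falls. These are letter matches in a short window and not measured binding sites.

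Stress transcription factors rose beside the p53 targets. Atf3, a factor of the ATF and CREB family induced by many stresses, had intensities of 275, 332 and 349 at 6 mg and 30.6, 28.6 and 35.1 in isopropyl alcohol, and rose 8.36-fold (log2 fold change 3.06 ± 0.46, adjusted p = 1.14e-06). It had the largest rise of all named genes, from control values that were low and close together. Cebpb, a bZIP factor of inflammation and stress, had 1049, 1042 and 1159 against 656, 421 and 518 and rose 2.03-fold. Atf4, the main factor of the integrated stress response, rose 1.41-fold (0.50 ± 0.15, adjusted p = 0.0112), and Ppp1r15a, which directs the phosphatase that ends that response, rose 1.6-fold (0.67 ± 0.21). In the integrated stress response list 4 of 21 members were higher and none lower, with a median of 0.30. The count was 8 with scan days as a block. Against the saline animal of the same days Atf3 kept its call, whereas Atf4 (0.50), Ppp1r15a (0.82) and Cebpb (0.86) did not pass.

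Immediate early genes gave moderate changes at this time. Csrnp1, a nuclear factor induced by growth signals, had 226, 234 and 239 against 133, 103 and 112 and rose 1.95-fold (log2 fold change 0.96 ± 0.16, adjusted p = 8.4e-06). Ier5, Ier3 and Klf6, further early response genes, rose 1.68-fold, 1.74-fold and 1.44-fold, and Btg1, an antiproliferative gene, rose 1.31-fold. Csrnp1 did not pass against the saline animal of the same days (adjusted p = 0.12). The animals of the groups overlapped for Btg1, and a second probe set of Klf6 stood at 0.12. Of 23 members 6 were higher and none lower, and 4 were higher with the block, where Ier3, Klf6 and Btg1 did not pass. Dusp1, a phosphatase of MAP kinases, had a log2 fold change of 0.93 ± 0.33 (adjusted p = 0.0412). A second Dusp1 probe set gave -0.12, the gene did not pass with the block (adjusted p = 0.13) and it stood at -0.03 against the saline animal of the same days. It was the only one of 7 MAP kinase phosphatase and Sprouty genes called.

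Genes of glutathione synthesis and antioxidant defence were higher. Srxn1, which encodes sulfiredoxin, had 276, 472 and 379 at 6 mg and 176, 36 and 94.8 in isopropyl alcohol, and rose 3.97-fold (log2 fold change 1.99 ± 0.52, adjusted p = 0.00397). On the log2 scale its controls differed more among themselves than any 6 mg animal did from the highest of them. The call did not hold without isopropyl alcohol replicate 2 (adjusted p = 0.0804). Hmox1, which encodes the haem-degrading enzyme haem oxygenase, had 604, 706 and 635 against 286, 173 and 314 and rose 2.55-fold. Gclc and Gclm encode the catalytic and modifier subunits of glutamate-cysteine ligase, with which glutathione synthesis begins. Gclc had 313, 348 and 308 against 164, 118 and 191 (log2 fold change 1.03 ± 0.16, adjusted p = 1.19e-06). Gclm had 210.2, 214 and 229 against 117, 109.8 and 120.3 (log2 fold change 0.87 ± 0.16, adjusted p = 2.95e-05), with both groups tight and apart. Nqo1, a quinone reductase, Gsta1, a glutathione transferase, Txnrd1, a thioredoxin reductase, Txn1, thioredoxin itself, and Osgin1 rose between 1.42-fold and 2.13-fold. Of 32 measured members of the Nrf2 and glutathione list 9 were higher and none lower, with a median of 0.17. With the block 8 were higher, without Txn1 and Gsta1, and against the saline animal of the same days 10 were. The core of the antioxidant response element, TGACNNNGC on either strand, was found in 6 of 27 promoter windows of this list (22.2%). It was found in 871 of 6713 windows of all tested genes (13%). Other sets had similar shares, with 5 of 24 windows of the largest falls (20.8%) and 3 of 15 of the p53 targets (20%). The share was 3 of 10 in the metallothionein and acute phase list (30%) and 3 of 21 in the largest rises (14.3%).

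Mt2A, a metallothionein that binds zinc and other metals through its thiols, had 1183, 1685 and 1956 at 6 mg and 556, 449 and 535 in isopropyl alcohol, and rose 3.06-fold (log2 fold change 1.61 ± 0.38, adjusted p = 0.0016). Every 6 mg animal stood above every control, as the choice of the largest rises requires, and above all 3 saline animals (389.6, 801 and 470.1). Its promoter is shown because metallothionein genes are known for repeated metal response elements before their start. The window lies at chr19:10838709-10838958 on the minus strand of GRCr8 (RefSeq), and capitals mark the core TGCACNC or TGCGCNC on either strand.
Mt2A: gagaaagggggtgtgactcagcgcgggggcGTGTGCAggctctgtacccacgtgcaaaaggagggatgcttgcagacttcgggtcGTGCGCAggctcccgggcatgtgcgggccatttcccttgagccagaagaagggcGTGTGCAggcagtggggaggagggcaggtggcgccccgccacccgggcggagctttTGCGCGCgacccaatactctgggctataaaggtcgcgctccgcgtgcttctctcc
There were 4 matches, none of which overlapped the other motifs searched. The core is short, and 2173 of the windows of tested genes held at least 1 match (32.4%). Among 13 measured metallothionein and acute phase genes 4 were higher, namely Mt2A, the fibrinogen chain gene Fgg, the protease inhibitor gene Timp1 and Stat3, the factor that acts downstream of interleukin-6. Stat3 had 830.2, 778 and 767 against 532, 292 and 223, with a second probe set at 0.32. With the block Mt2A remained and Fgg, Timp1 and Stat3 did not pass (adjusted p of 0.0662, 0.164 and 0.147), and Stat3 also lost its call against saline.

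Chaperone, proteasome and ribosomal protein lists had small positive medians, and several of their calls were lost with scan days as a block. Of 21 endoplasmic reticulum chaperone genes 5 were higher, with a median of 0.20. They were Hspa5, which encodes BiP (1169, 1463 and 1087 against 741, 714 and 694), Dnajb9, Herpud1, Edem1 and Ero1a, with log2 fold changes from 0.37 to 0.82, and 0 of them passed with the block. In the cytosolic heat shock list 1 of 17 genes, Dnajb4, was higher (392, 579 and 443 against 301, 243 and 274, 0.76 ± 0.19), and the median was 0.30. Among 33 proteasome subunits 6 were higher (median 0.20), led by the regulatory particle gene Psmd13 with 272, 271 and 256 against 169, 144 and 140.0, and 3 were with the block. All 38 ribosomal protein genes had a positive log2 fold change, of which 2 passed (Rpl21 and Rpl23), while the median of 0.27 became 0.11 with the block, with 0 passing. Of 17 aminoacyl tRNA synthetase genes 3 were higher (Rars1, Gars1 and Qars1) and 1 was lower (Eprs1, -0.50 ± 0.14).

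Some genes of the transcription machinery were higher together with Hexim1. Hexim1 inhibits the elongation factor P-TEFb and is known to rise when P-TEFb is released. It had 590.2, 919 and 839 at 6 mg against 264, 336 and 216 (log2 fold change 1.50 ± 0.24, adjusted p = 4.55e-06). Every treated animal exceeded every control, but the saline animal of the same days stood at 409, above the controls, and against it the rise was 0.90 and did not pass (adjusted p = 0.0716). Polr2a, the largest subunit of RNA polymerase II, had 483, 569 and 623 against 378, 309.8 and 257 (log2 fold change 0.78 ± 0.16, adjusted p = 0.000225). Polr2k and Polr2b, which encode other subunits, the bromodomain gene Brd2 and the elongation factor gene Ell also rose, by 0.87, 0.44, 0.55 and 0.40 on the log2 scale. Of 20 members 6 were higher and none lower, and 4 were with the block, where Ell, Polr2b and Polr2k did not pass. Polr2a, Brd2 and Ell stood at 0.94, 0.69 and 0.32 against the saline animal of the same days, and Polr2k and Polr2b at 0.08 and -0.24.

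Serpind1, which encodes heparin cofactor II, an inhibitor of thrombin, had 169.8, 270.1 and 163 at 6 mg and 48.6, 43.5 and 52 in isopropyl alcohol (log2 fold change 1.90 ± 0.26, adjusted p = 8.53e-08). Adamts1, a secreted matrix protease, had 799.8, 1021 and 937 against 290.3, 344 and 258 (log2 fold change 1.61 ± 0.24, adjusted p = 5.96e-07). For both genes the control animals were close together and far below the treated ones. Plat, the tissue plasminogen activator, had 697, 869 and 769 against 323, 325 and 428 and rose 2.16-fold (1.11 ± 0.14, adjusted p = 4.93e-09). Procr, the endothelial receptor of protein C, had 126, 183 and 162 against 59.2, 58.3 and 60.8 and rose 2.43-fold. Tnfrsf12a, the receptor of the cytokine TWEAK, had 218, 279.8 and 266 against 69.5, 64.4 and 104. Adm, the vasodilator peptide adrenomedullin, rose 2.57-fold from low control values (31.4, 7.85 and 34.2), and its call was lost without isopropyl alcohol replicate 2 (adjusted p = 0.0959). Bmp2, a growth factor, rose 1.65-fold, and Mmp14, a membrane-bound protease, rose 2.58-fold with overlapping animals (723, 1248 and 426 against 527, 206 and 185). The growth factor and repair list had 8 of 29 members higher and 1 lower, the urokinase gene Plau (-0.39 ± 0.14), with a median of 0.15. With the block 5 were higher, without Timp1, Mmp14 and the galectin gene Lgals3. Tnfrsf12a and Adm did not pass against the saline animal of the same days (adjusted p = 0.0944 and 0.176).

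Few cytokine genes passed the test. Il1a, which encodes interleukin-1 alpha, had 234, 234 and 199 at 6 mg against 64, 89.1 and 65.8 (log2 fold change 1.53 ± 0.29, adjusted p = 7.83e-05), with no overlap, and its other probe set stood at 0.49. Il1r2, the decoy receptor of interleukin-1, rose 2.13-fold (1.09 ± 0.39) and did not pass with the block (adjusted p = 0.328). Nfkb1, a subunit of NF-kB, was lower, with 317, 315 and 361 against 480.4, 481 and 457. In the list of cytokines, chemokines and NF-kB response genes 2 of 26 measured members were higher and 1 lower, with a median of 0.18. A further 11 members on the array lay below the intensity filter and were not tested. The share that was higher is near that of all genes. None of 22 interferon-induced genes passed. Gbp2 came nearest (0.57 ± 0.21, adjusted p = 0.0547).

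**Figure D2:**
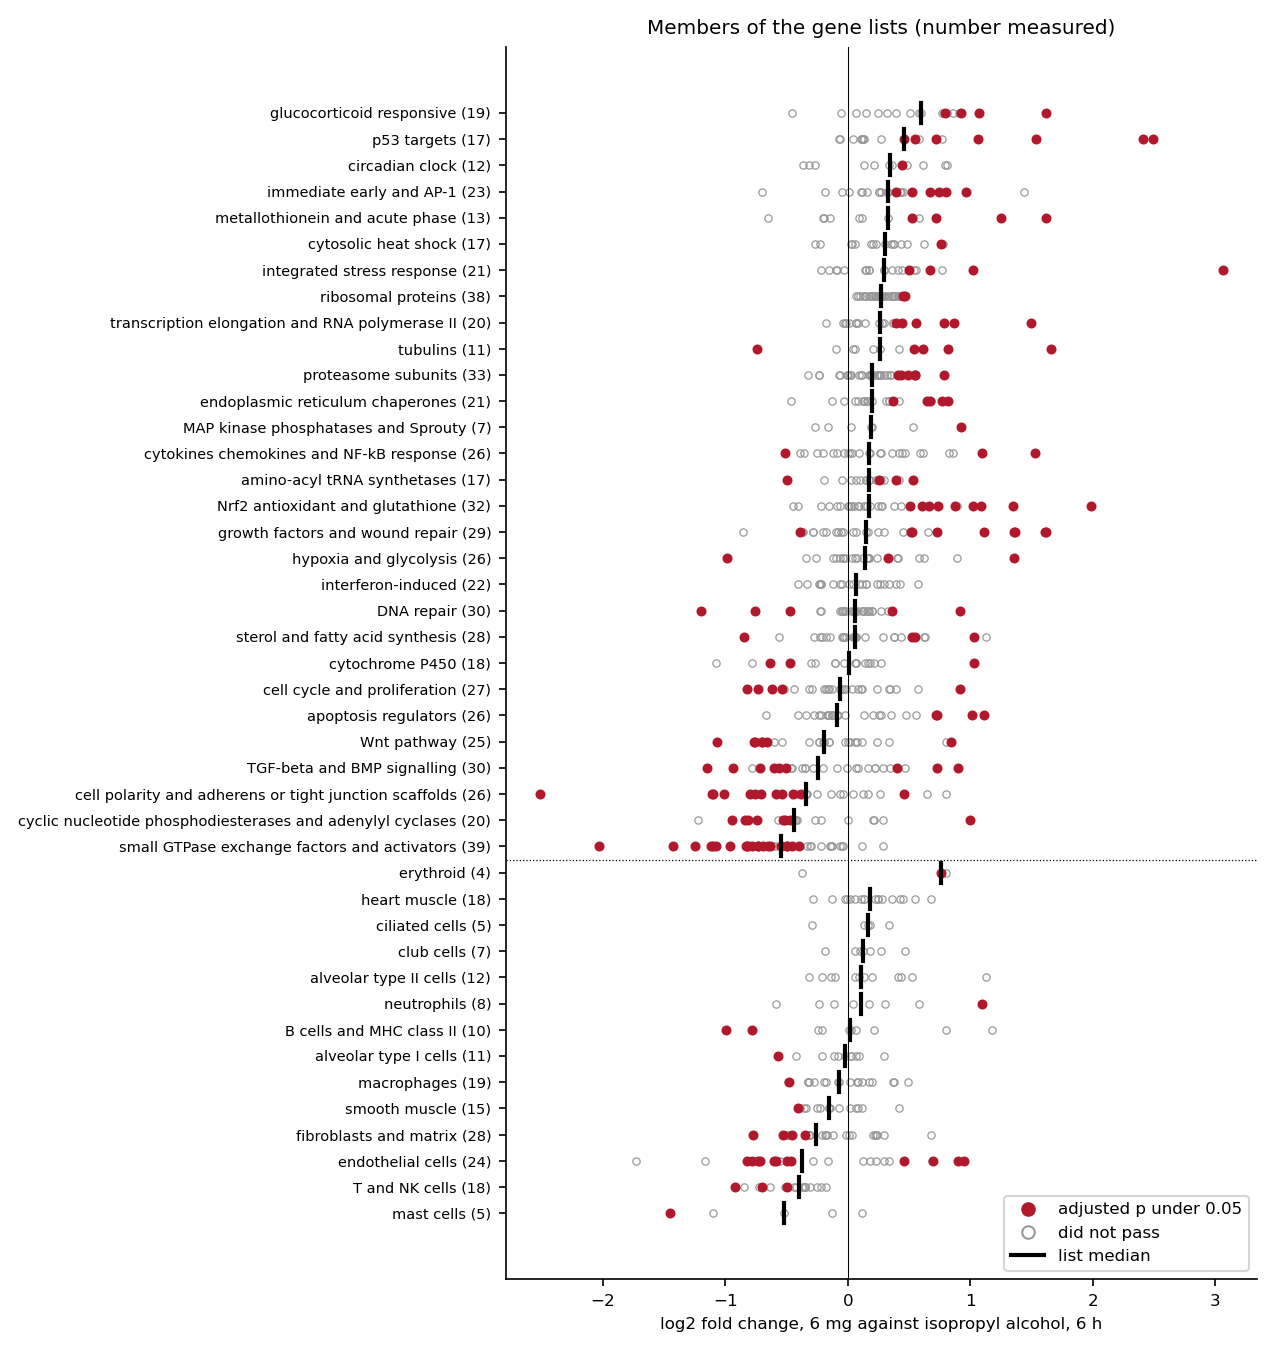
Log2 fold change of 6 mg against isopropyl alcohol at 6 h for each measured member of 43 gene lists, with pathways above and cell type markers below the dotted line; filled points passed the test, open points did not, and black ticks are list medians. The list of small GTPase regulators has no filled point to the right of 0, and the p53 list none to its left.

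Other rises among the 24 largest spanned several functions. Tubb6, a beta tubulin, had 185, 244 and 199 against 51.4, 62.4 and 69.1 (log2 fold change 1.66 ± 0.31, adjusted p = 5.5e-05), and of 11 tubulin and tubulin cofactor genes 4 were higher (Tubb6, Tubb2a, Tuba4a and Tubb4b) and 1 lower (the cofactor gene Tbcd, -0.74 ± 0.18). Odc1, the first enzyme of polyamine synthesis, had 591, 647 and 555 against 251, 237 and 226, with both groups tight (log2 fold change 1.30 ± 0.18, adjusted p = 2.44e-07). Tob1, an antiproliferative gene, had 440.5, 643 and 565 against 187, 210.1 and 184. Coq10b, a coenzyme Q binding protein, had 398, 517 and 556 against 181, 200.4 and 186. All 3 of these genes kept their calls against the saline animal of the same days. Slc7a6, an amino acid transporter, Arrdc3, an arrestin-like adaptor, and Tes, a focal adhesion protein, rose between 2.5-fold and 2.54-fold, and Tes did not pass against that animal (adjusted p = 0.178). Sv2b, a synaptic vesicle glycoprotein, had 995, 1203 and 1303 at 6 mg and 479, 871 and 183 in isopropyl alcohol, but the saline animal of the same days stood at 1264, which placed Sv2b at -0.13 against it. H2ax, the histone variant phosphorylated at DNA breaks, had 139, 204 and 263 against 72, 101 and 59, and the saline animal of the same days stood at 157. Neither Sv2b nor H2ax passed against that animal, and Sv2b also did not pass with the block (adjusted p = 0.52).

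DNA repair and cell cycle genes that passed lay in both directions, in shares near the background for DNA repair. Mgmt, which removes alkyl groups from guanine, was lower, with 37, 34.4 and 46 at 6 mg and 84.9, 63.5 and 62.6 in isopropyl alcohol (log2 fold change -0.76 ± 0.19, adjusted p = 0.00221). Its groups were apart, and the call held with the block (adjusted p = 0.0236) but not against the saline animal of the same days (adjusted p = 0.214). Pcna, the sliding clamp of DNA replication and repair, was higher, with 886, 1033 and 845 against 467, 506 and 474 (log2 fold change 0.92 ± 0.19, adjusted p = 0.00023). Pcna held with the block but not against the saline animal (adjusted p = 0.167). Parp1, a sensor of DNA breaks, and Rad50, of the break-repair complex MRN, had log2 fold changes of -0.47 ± 0.12 and -1.20 ± 0.43, and Polb, the base excision repair polymerase, of 0.36 ± 0.12. A second probe set of Polb stood at -0.62, and with the block Parp1, Rad50 and Polb did not pass. Of 30 repair genes 2 were higher and 3 lower, with a median of 0.06.

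Among apoptosis regulators 4 of 26 were higher and none lower, although the median was -0.09. Bcl2l11, which encodes the death-promoting protein Bim, had 414, 400.1 and 425 against 247, 158 and 205 (log2 fold change 1.02 ± 0.17, adjusted p = 6.23e-06), whereas its other probe set stood at -0.44. Ripk1, a kinase of death receptor signalling, had 264, 296 and 319 against 198, 153 and 172 (0.73 ± 0.15). Mcl1 and Cflar, which encode proteins that oppose cell death, had 1.11 ± 0.38 and 0.72 ± 0.22 and did not pass with the block. Members of both effects on cell death thus stood among the rises against isopropyl alcohol, but with the block those that oppose it did not. Against the saline animal of the same days Bcl2l11, Ripk1, Cflar and Mcl1 stood at 1.07, 0.45, 0.49 and -0.14. In the cell cycle list 4 of 27 were lower (Ube2c, Cdk4, Top2a and Ccnb1) and 1, Pcna, was higher. The 4 lower genes did not pass with the block.

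Pard3 had the largest fitted fall. It encodes a scaffold that sets the polarity of epithelial cells. Its intensities were 23.6, 7.3 and 21.8 at 6 mg and 145, 112 and 117 in isopropyl alcohol (log2 fold change -2.51 ± 0.24, adjusted p = 7.21e-12). The lowest treated value lay near 7, the 10th percentile of all values on the arrays, and the other treated values were higher but far below the controls. The fitted value depends on the offset of 7 at such intensities. Other members of polarity and junction complexes were lower too. Patj, a multi-PDZ protein of the Crumbs complex, had 58.2, 59.4 and 60.0 against 136, 127 and 141 (-1.11 ± 0.12). Its paralog Mpdz, of the tight junction, had 64.2, 67.8 and 58 against 102, 114 and 121 (-0.76 ± 0.12). In both genes the groups were narrow and apart. Prkcz, an atypical protein kinase C that binds Pard3 complexes, fell 2.14-fold, Magi3, a junction scaffold, fell 2.02-fold, and Dlg1, a basolateral scaffold, fell 1.51-fold. Of 26 measured members 11 were lower and 1 was higher, with a median of -0.34. With the block 12 were lower. The member that rose, Cldn5, is a claudin of endothelial tight junctions, with 2468, 2508 and 2704 against 1726, 1816 and 2058.

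Of the 43 lists, that of small GTPase regulators had the largest share of members called lower. These proteins load Rac, Cdc42, Rap and Arf GTPases with GTP or speed its hydrolysis, and so steer the actin cytoskeleton and adhesion. Of 39 measured members 21 were lower and none higher, 37 had a negative log2 fold change, and the median was -0.54. The list was written with the fall of several members already known. Dock9, an exchange factor for Cdc42, had 115, 106 and 98.2 at 6 mg and 419.9, 517 and 423 in isopropyl alcohol (log2 fold change -2.04 ± 0.18, adjusted p = 1.88e-12). A second Dock9 probe set gave -0.53. Vav2 had 28.4, 15.1 and 26.7 against 76.5, 94.2 and 53.2 (-1.43 ± 0.23). Trio had 101, 65.4 and 70.0 against 214, 178 and 187 (-1.25 ± 0.20). Both are exchange factors for Rac, and both had every treated animal below every control. Dock1, an exchange factor for Rac, fell 1.95-fold, Asap1, which acts on Arf GTPases, fell 2.15-fold, and Arhgap44 fell 1.55-fold. The smallest fall that passed was that of Rap1gds1 (-0.40 ± 0.14). With scan days as a block 21 were lower (median -0.58), and against the saline animal of the same days 12 were.

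Plcb4, a phospholipase C coupled to G proteins, had 139, 48.7 and 63.1 against 289, 310.0 and 321 (log2 fold change -1.96 ± 0.24, adjusted p = 6.04e-09). Its relative Plcb1 had 40.2, 33.5 and 43.6 against 93.8, 202 and 121 (log2 fold change -1.60 ± 0.23, adjusted p = 4.68e-07). Rgs7, which ends G protein signals, had 40.2, 35.5 and 44.5 against 119, 104 and 152 (-1.48 ± 0.22). All 3 had treated animals far below the lowest control, where the choice of these genes required only that the groups not overlap. In the list of phosphodiesterases and cyclases 7 of 20 were lower, with a median of -0.44. Among them were the adenylyl cyclase gene Adcy2 (122, 106 and 113 against 190.4, 210.2 and 181, -0.74 ± 0.12) and Gucy1a1 and Gucy1b1 (-0.53 ± 0.13 and -0.84 ± 0.17), the subunits of the nitric oxide receptor guanylyl cyclase. The exception was Pde4b, a phosphodiesterase that degrades cyclic AMP, which rose 2-fold (520.3, 502 and 524 against 197, 348 and 239.8, adjusted p = 0.000377).

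Wnt and TGF-beta pathway genes were lower in part. Daam1, a formin of Wnt signalling, had 281, 246 and 295 against 533, 469 and 415 (-0.77 ± 0.15). Ryk, a Wnt receptor, had 125, 121 and 139 against 212, 216 and 235 (-0.76 ± 0.14). The transcription factor genes Tcf7l1, Tcf7 and Tcf7l2 and the receptor gene Fzd2 fell between 1.58-fold and 2.09-fold, and the ligand gene Wnt4 rose 1.8-fold. Wnt4 did not pass with the block (adjusted p = 0.0514) or against the saline animal of the same days (adjusted p = 0.0745), and against that animal 3 members of the Wnt list were lower. In all 6 of 25 were lower and 1 higher (median -0.20). In the TGF-beta and BMP list 6 of 30 were lower and 3 higher (median -0.24). Bmp6, a ligand, had 173, 158 and 176 against 331, 349 and 308 (log2 fold change -0.93 ± 0.13, adjusted p = 3.18e-07). The receptor genes Acvrl1 and Bmpr1a and the signal transducer genes Smad3 and Smad6 were lower, with log2 fold changes of -0.61, -0.71, -0.51 and -1.15, while Tgif1, a corepressor of Smad signalling, rose 1.87-fold and the Smad inhibitor gene Skil rose 1.32-fold. Bmpr1a, Smad6 and Skil did not pass with the block, and Acvrl1 stood at -0.13 against the saline animal of the same days.

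The other large falls belonged to no single list. Ttc28, a tetratricopeptide protein, had 50.9, 22.5 and 29.3 against 168, 172 and 187 (log2 fold change -2.25 ± 0.25, adjusted p = 6.11e-10). Cdk14, a cyclin-dependent kinase that acts in Wnt signalling, had 95.8, 55.5 and 79.8 against 269, 298 and 306 (log2 fold change -1.86 ± 0.14, adjusted p = 3.1e-15), the smallest adjusted p of the 48 genes. In both, the treated animals lay well below controls that were close together. Ankrd44, a regulatory subunit of protein phosphatase 6, had 84.2, 54.5 and 86.1 against 328, 360.2 and 324 (log2 fold change -2.11 ± 0.23, adjusted p = 2.09e-10). Arl15, a small GTPase, had 40.5, 36.9 and 34.5 against 144, 228 and 191. Both were lower in every treated animal, as the choice of the 24 falls requires. Gphn, a scaffold that also makes the molybdenum cofactor, had 17, 23.4 and 19.1 against 75.5, 77.9 and 73.1 (log2 fold change -1.63 ± 0.16, adjusted p = 8.59e-12). Its 6 values formed a pair of narrow bands. Nfia, a transcription factor, had 151, 100.2 and 147 against 452, 443 and 371, and its other probe sets agreed in sign at -1.38 and -1.51. Uvrag, which acts in autophagy, had 113, 89.2 and 88 against 292, 268 and 285. Fndc3b had 132, 126 and 132 against 367, 349 and 407, with a second probe set at -1.43. Stag1, a cohesin subunit, Mapkap1, a subunit of mTORC2, and Slc4a4, a bicarbonate transporter, fell between 3.09-fold and 3.26-fold. Lrba, a vesicle trafficking protein, Ube2e2, a ubiquitin-conjugating enzyme, and Sh3bp4, an endocytic adaptor, fell between 2.93-fold and 3.01-fold. Veph1, Mad1l1, Zdhhc14, Fam13c and Fars2 fell between 3.23-fold and 4.61-fold, and in Veph1, Mad1l1, Zdhhc14 and Fars2 at least 1 treated animal was below an intensity of 12. All 24 falls kept their calls both with scan days as a block and against the saline animal of the same days. Pard3, Ttc28, Gphn and Lrba are known as long genes in mammals. Gene length was not measured here, for these or for other genes, and a link between length and the falls was not tested.

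Hormone, clock and metabolic genes gave smaller numbers of calls. Of 19 glucocorticoid-responsive genes 4 were higher (Mt2A, Glul, Errfi1 and Dusp1) and none lower, with a median of 0.60, and with the block 1 was higher, Mt2A. Glul, glutamine synthetase, had 1144, 1105 and 1049 against 639, 623 and 624, while its other probe sets stood at -0.32 and -0.03. Errfi1, an inhibitor of the EGF receptor, had 1129, 1120.0 and 1044 against 694, 346 and 579.8 (1.07 ± 0.32, adjusted p = 0.0658 with the block). Of 12 clock genes 1, Cry2, was higher (0.44 ± 0.15), and it did not pass with the block (adjusted p = 0.317) or against the saline animal of the same days (adjusted p = 0.152). In glycolysis and hypoxia 2 of 26 were higher (Adm and the glycolytic enzyme gene Pgam1) and 1 lower, Hk1, a hexokinase (119, 91.4 and 111 against 197, 238 and 222, -0.98 ± 0.21). In sterol and fatty acid synthesis 3 of 28 were higher (Cyp51, Sc5d and Chka) and 1 lower. The latter was Acaca, the enzyme that makes malonyl-CoA for fatty acids, which had 151, 133 and 146 against 266, 273 and 249 (log2 fold change -0.85 ± 0.12, adjusted p = 1.04e-07). Cyp51, a demethylase of sterol synthesis, had 281, 316 and 274 against 125, 153 and 139.6 (1.03 ± 0.23). Of 18 cytochrome P450 and related oxidation genes 1 was higher, the same Cyp51, and 2 were lower, Fmo1 and Cyb5r3. With the block Pgam1, Chka and Cyb5r3 did not pass (adjusted p = 0.0524, 0.324 and 0.12).

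The samples had the markers of lung. Sftpc, the surfactant protein C gene of alveolar type II cells, ranged from 6245 to 11262 at 6 mg and 5703 to 6819 in isopropyl alcohol, and Scgb1a1, the club cell secretoglobin, from 5517 to 9532 and 4974 to 5726. Sftpb, Sftpa1 and Ager lay between 2040.2 and 5321 in all 6 animals. None of these 5 genes passed the test. None of 12 type II, 7 club and 5 ciliated cell markers passed, and of 11 type I markers 1 was lower, Clic5 (-0.57 ± 0.12). Heart muscle markers, which would show attached heart tissue, had 0 of 18 calls, with a summed intensity of 2024 to 3116 at 6 mg and 1961 to 2643 in isopropyl alcohol. The erythroid list, with 4 genes, had a summed intensity of 2394 to 3403 and 1346 to 1954. Its 1 call was Tfrc, the transferrin receptor (0.76 ± 0.19), which passed with the block (adjusted p = 0.0107). In saline the sums were 2116, 4580 and 4228, and the last, of the same scan days, lay above every 6 mg animal. Measured against that saline animal, the list median was -0.24 and Tfrc stood at 0.23.

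Endothelial markers divided. Of 24 measured 8 were lower and 4 higher, with a median of -0.37, and their summed intensity ranged from 20989 to 22441 at 6 mg and 20659 to 22404 in isopropyl alcohol. Kdr, the receptor of VEGF, had 937, 596 and 666 against 1286, 1504 and 1069.5 (log2 fold change -0.82 ± 0.17, adjusted p = 0.000211). Emcn, an endothelial surface sialomucin, had 457, 405 and 391 against 635, 825 and 651 (log2 fold change -0.74 ± 0.12, adjusted p = 6.88e-06). These 2 falls held with the block and against the saline animal of the same days. Car4, a carbonic anhydrase of the alveolar capillary, and Ramp2, a subunit of the adrenomedullin receptor, had -0.79 ± 0.17 and -0.72 ± 0.18. Ramp2 did not pass with the block (adjusted p = 0.0849), and neither passed against the saline animal of the same days (adjusted p = 0.119 and 0.326). Apln, the peptide apelin, rose 1.93-fold (450.5, 560.0 and 577 against 228, 323 and 263), as did S1pr1, the receptor of sphingosine 1-phosphate (1.62-fold), Esm1 (1.87-fold) and Cldn5. Apln did not pass against the saline animal of the same days, and Cldn5, S1pr1 and Esm1 did not pass with the block (adjusted p = 0.0698, 0.071 and 0.19). Pecam1 and Vwf, pan-endothelial markers, stood at 0.34 ± 0.31 and -0.29 ± 0.20 and did not pass. With the block 6 were lower and 2 higher, and against the saline animal of the same days 2 were lower and 1 higher.

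Stromal and immune markers gave the following counts. Of 28 fibroblast and matrix genes 4 were lower (Fbn1, Col4a1, Col4a2 and Col6a3). Fbn1, the microfibril protein fibrillin, had 443, 485 and 488 against 875, 837 and 733. Col4a2 did not pass with the block (adjusted p = 0.154). In the order named, the 4 genes stood at -0.45, -0.31, -0.21 and -0.42 against the saline animal of the same days. In smooth muscle 1 of 15 was lower (Mylk, -0.40 ± 0.11), and in macrophages 1 of 19 (Csf1r, -0.48 ± 0.16). Csf1r did not pass with the block (adjusted p = 0.16) and stood at -0.13 against the saline animal of the same days. The neutrophil genes S100a8 and S100a9 stood at 0.17 ± 0.59 and 0.30 ± 0.53, and the 1 call of 8 neutrophil markers was Il1r2. All 18 T and NK cell markers had a negative log2 fold change (median -0.40), and 3 passed: Cd3d, a chain of the T cell receptor complex (27.4, 21.1 and 14.7 against 42.4, 55.8 and 31.7), Il2rb and Tcf7. The summed intensity of the 18 markers ranged from 1512 to 1921 at 6 mg and 2180.2 to 2447 in isopropyl alcohol. It was 1883 in the saline animal of the same scan days, within the range at 6 mg. With the block 1 marker passed, Tcf7, 14 of the 18 were negative and the median was -0.18. Against that saline animal 13 of the 18 were negative and the median was -0.14, with Cd3d at -0.47 and Il2rb at -0.28. Of 10 B cell and MHC class II genes Cd79b and Cd37 were lower, and of 5 mast cell markers Kit, the receptor of stem cell factor (-1.45 ± 0.47). None of these 3 passed with the block. A further 9 mast cell, 5 neutrophil and 5 T and NK cell markers on the array lay below the intensity filter and were not tested.

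The dose series at 6 h was used to ask which changes were present below 6 mg. Against the same isopropyl alcohol animals, 1 of 11106 probe sets passed at 1 mg (457 had an unadjusted p under 0.05) and 187 passed at 3 mg, 36 higher and 151 lower. The doses share their control animals, so the values are given side by side and the 6 mg and 3 mg animals were compared directly. In that comparison 479 probe sets passed (4.31%), 119 higher and 360 lower at 6 mg. The number depended on single animals and was 109 without 3 mg replicate 2, 129 without 6 mg replicate 2, 166 without 3 mg replicate 3 and 252 without 6 mg replicate 3.

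**Figure D3:**
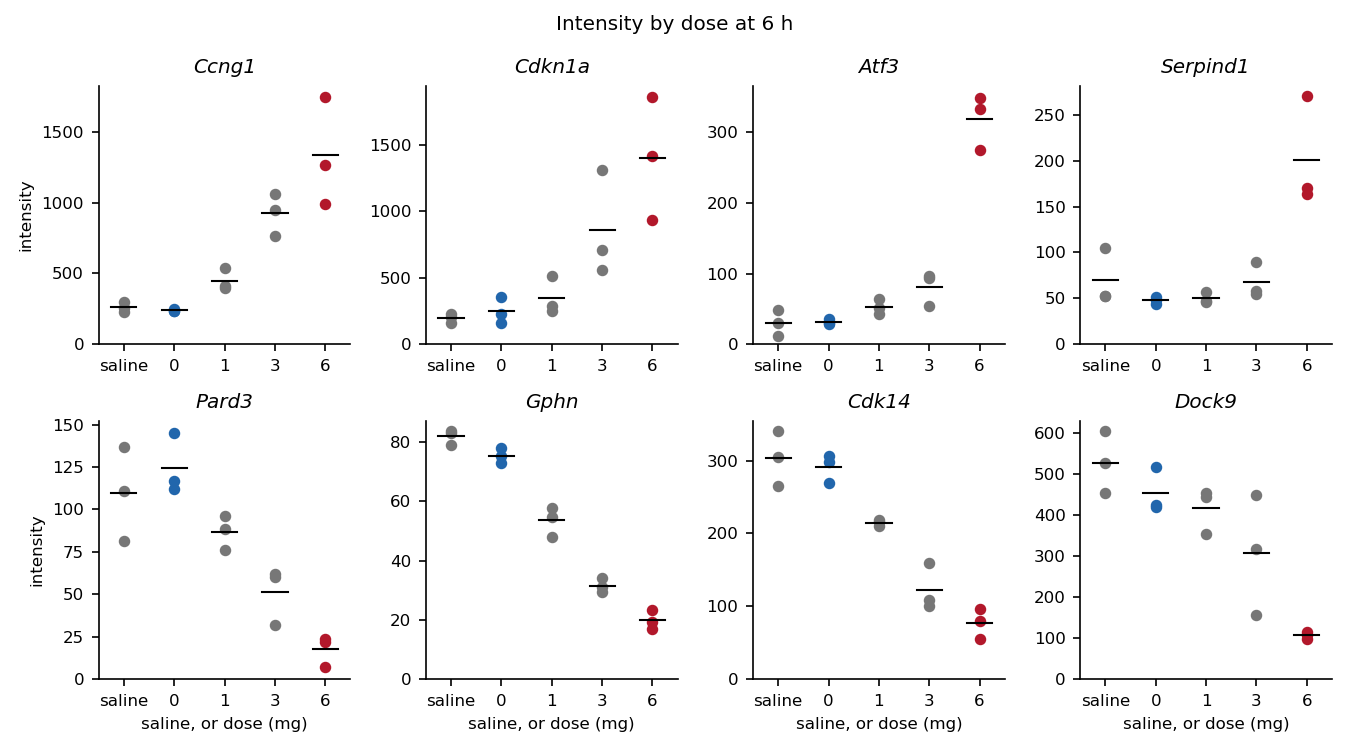
Intensity at 6 h in saline and in isopropyl alcohol with 0, 1, 3 or 6 mg for 4 genes that rose and 4 that fell at 6 mg; points are animals (3 per group), bars are group means, and the axes start at 0. The 3 mg animals of Ccng1 and Cdkn1a reach into the range of those at 6 mg, while those of Atf3 and Serpind1 lie far below it.

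Ccng1 had 411, 397 and 541 at 1 mg and 762, 952 and 1059 at 3 mg, with log2 fold changes of 0.88, 1.90 and 2.41 at 1, 3 and 6 mg. The group means stood in the order of dose, and 6 mg did not differ from 3 mg beyond the test (adjusted p = 0.151). Cdkn1a had 706, 1313 and 556 at 3 mg (1.74), which overlapped the 6 mg animals. Atf3 had 96.2, 94 and 54 at 3 mg, and was higher at 6 mg than at 3 mg by 1.90 ± 0.46 (adjusted p = 0.00969). This call was lost without 6 mg replicate 2 (adjusted p = 0.0572) and without 3 mg replicate 3 (adjusted p = 0.0828). Serpind1 had 89.7, 58.4 and 55.1 at 3 mg, and the difference of 1.49 ± 0.26 passed (adjusted p = 0.000188). Adamts1 (1.26), Esm1 (1.20), Il1a (1.13) and Coq10b (1.03) were also higher at 6 mg than at 3 mg, and the calls of Il1a and Esm1 were lost in 2 and 4 of 10 alternatives, each of them leaving out 1 animal. At 3 mg these 6 genes did not pass against isopropyl alcohol.

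Among the falls, Gphn had 54.9, 57.9 and 48 at 1 mg and 29.3, 31.1 and 34.1 at 3 mg, which did not overlap each other or the controls. Its 3 mg value passed against isopropyl alcohol (-1.14, adjusted p = 1.1e-06), and 6 mg against 3 mg did not (adjusted p = 0.0558). Cdk14 averaged 122 ± 32 (SD, n = 3) at 3 mg and was lower still at 6 mg (difference -0.63 ± 0.14, adjusted p = 0.00338). Dock9 had 157, 316 and 447 at 3 mg, a wide spread, and differed by -1.37 ± 0.18 from 6 mg (adjusted p = 6.69e-06). At 6 mg Pard3 (-1.29), Veph1 (-1.69), Fam13c (-1.28), Tmem229b (-1.28) and Wnt5b (-1.28) were also lower than at 3 mg. The call of Veph1 was lost without 6 mg replicate 2 (adjusted p = 0.0577) or 3 mg replicate 3 (adjusted p = 0.0645), and that of Fam13c without 3 mg replicate 3 (adjusted p = 0.0513). Tmem229b and Wnt5b, a Wnt ligand, each did not pass when 6 mg replicate 2 or 3 or any of the 3 mg animals was left out.

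The 9th and 10th scan days allow the dose order to be read within 1 pair of scan days, with 1 animal each in saline, at 1 mg and at 3 mg. Ccng1 had 301, 541 and 1059 in these, below or within the range of 993 to 1749 of the 6 mg animals. Pard3 had 111, 76.2 and 60.0, against 7.3 to 23.6 at 6 mg. Gphn had 83, 48 and 34.1, against 17 to 23.4. In Pard3 and Gphn the values within these days followed the dose, without replicates below 6 mg. In Ccng1 they did so up to 3 mg, where the value of 1059 lay within the range at 6 mg. Atf3 had 30.7, 42.4 and 54, against 275 to 349.

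The 6 mg effect at 6 h was compared with the effects at 3 h and 24 h, each against isopropyl alcohol of its own time. The effect differed from that at 3 h in 174 probe sets (1.57%), 75 higher and 99 lower at 6 h, and from that at 24 h in 372 (3.35%), 97 higher and 275 lower. Without 6 mg replicate 2 of 6 h these numbers were 62 and 215, and leaving out other animals moved the first to between 76 and 262. Both tests use the same 6 animals of 6 h.

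**Figure D4:**
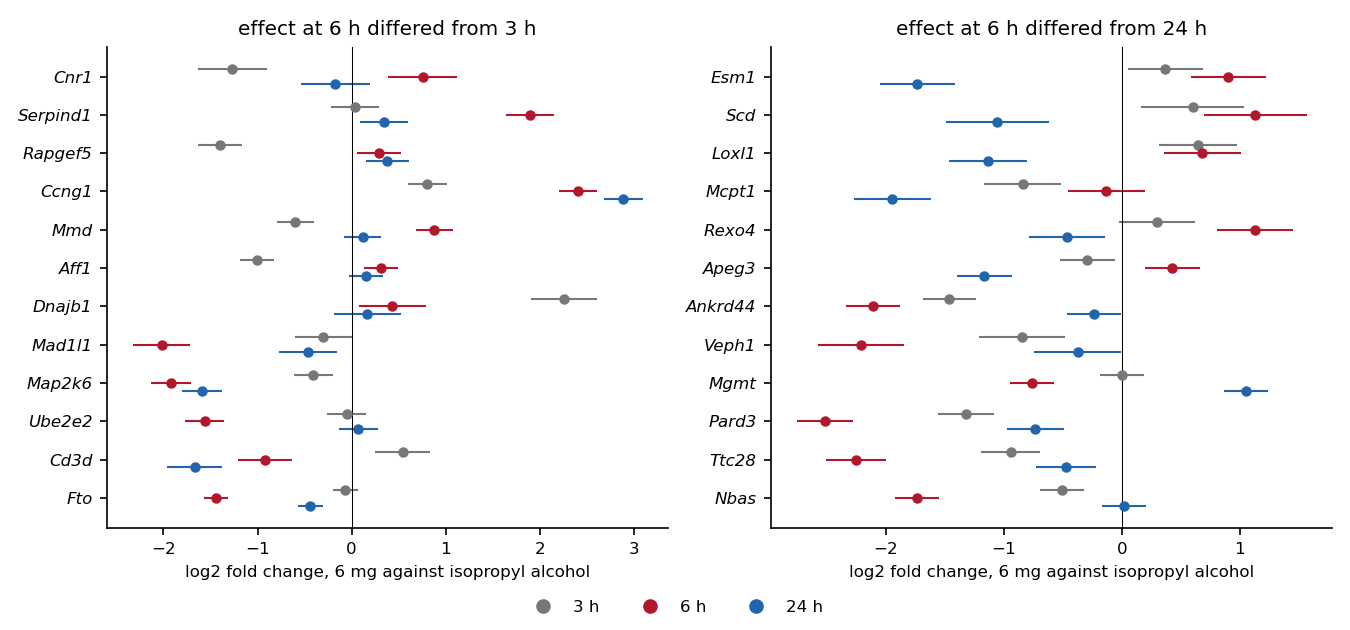
Log2 fold change of 6 mg against isopropyl alcohol at 3 h (grey), 6 h (red) and 24 h (blue) for the 12 named genes whose 6 h effect differed from that at 3 h (left) and the 12 whose 6 h effect differed from that at 24 h (right); bars are standard errors. Ube2e2 and Fto are near 0 at 3 h and low at 6 h, Nbas is low at 6 h and near 0 at 24 h, and Esm1 and Mgmt lie on opposite sides of 0 at 6 h and 24 h.

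Serpind1 stood at 0.04 at 3 h and 1.90 at 6 h, a difference of 1.86 ± 0.36 (adjusted p = 0.00186), and at 0.35 at 24 h. In the 3 h animals it had 42.1, 32.6 and 53 at 6 mg and 33.6, 60.0 and 31.6 in isopropyl alcohol, which overlapped. Ccng1 rose further from 3 h to 6 h (difference 1.60, adjusted p = 0.000826). Mmd, named for its link to macrophage differentiation, was lower at 3 h (-0.60) and higher at 6 h (0.88). Rapgef5, an exchange factor for Rap, and Aff1, a subunit of the super elongation complex, fell at 3 h (-1.40 and -1.01) and did not pass at 6 h (0.29 and 0.31). Cnr1, a cannabinoid receptor, had -1.27 and 0.76, but its difference between the times did not pass in 7 of 16 alternatives, among them scan days as a block (adjusted p = 0.125). These 3 genes fell at 3 h and did not pass at 6 h.

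Fto, Ube2e2, Mad1l1 and Map2k6 did not pass at 3 h and fell at 6 h. Fto, an RNA demethylase, had 166, 161 and 156 at 6 mg and 187, 174 and 149 in isopropyl alcohol at 3 h, and 76.2, 52.9 and 68.5 against 179.9, 179.6 and 190.1 at 6 h. The groups overlapped at 3 h and were far apart at 6 h (difference -1.38 ± 0.19, adjusted p = 5.22e-06). Ube2e2 had 103, 90.6 and 126 against 112, 92.5 and 127 at 3 h, and 44.8, 17.9 and 32.3 against 97.9, 103 and 101 at 6 h. Map2k6, a kinase upstream of p38, stood at -0.41 at 3 h and -1.92 at 6 h, where its treated values (8.3, 8.6 and 4.15) were near the background. Mad1l1, of the spindle checkpoint, stood at -0.30 and -2.02, and its difference did not pass in 7 of 16 alternatives. Dnajb1, a heat shock chaperone, ran the other way, with 2.26 at 3 h and 0.43 at 6 h, but its 3 h animals at 6 mg varied from 234 to 4608. Cd3d stood at 0.54 at 3 h and -0.92 at 6 h. The differences of Dnajb1 and Cd3d did not pass in 13 and 12 of the 16 alternatives run for them.

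Several of the large falls of 6 h did not pass at 24 h. Ankrd44 had 256, 303 and 238 at 6 mg and 274, 376 and 293 in isopropyl alcohol at 24 h, which overlapped, after -2.11 at 6 h (difference -1.87 ± 0.32, adjusted p = 0.000149). Nbas, a factor of vesicle transport, had 7.5, 8.1 and 16.9 against 58.6, 45.7 and 45.6 at 6 h and 48.9, 44 and 57.4 against 41.5, 54 and 53.8 at 24 h. Pard3, Ttc28 and Veph1 stood at -0.73, -0.47 and -0.37 at 24 h, none of which passed, and the difference of Veph1 between the times did not pass in 9 of 16 alternatives. Mgmt changed sign, from -0.76 at 6 h to 1.06 at 24 h, with 149, 244 and 176 against 97.9, 98.9 and 65.7 at the later time (difference -1.81 ± 0.26, adjusted p = 1.88e-05). Both of its effects passed at their own time.

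Genes whose effect was higher at 6 h than at 24 h were led by Esm1, an endothelial proteoglycan. It had 122, 134 and 149 against 58.2, 46.9 and 120.5 at 6 h and 14.8, 33.8 and 22.6 against 64.9, 94.7 and 123 at 24 h. Esm1 thus rose at 6 h (0.90, not passing with the block) and fell at 24 h (-1.73). The difference was 2.63 ± 0.45 (adjusted p = 0.000145). Mcpt1, a mast cell protease, stood at -0.13 at 6 h and -1.94 at 24 h, where its treated values were 12.4, 14.1 and 10.5. Scd, a fatty acid desaturase, Loxl1, a collagen and elastin crosslinking enzyme, Rexo4 and Apeg3 had differences of 2.18, 1.82, 1.60 and 1.59. Those of Scd and Rexo4 did not pass in 10 and 8 of 16 alternatives. Of these, Rexo4 passed at 6 h (1.13), while Scd, Loxl1 and Apeg3 did not.

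Medians of the lists differed between the times in size and sometimes in sign. The p53 target median was 0.05 at 3 h, 0.46 at 6 h and 0.50 at 24 h. For cytosolic heat shock genes it was 1.07, 0.30 and 0.14, and for immediate early genes 0.84, 0.33 and 0.42. Regulators of small GTPases stood at -0.44, -0.54 and -0.12. The differences between these medians were not tested. At 3 mg and 6 h the p53 and small GTPase medians were 0.31 and -0.25.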

How the data were processed

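Lung RNA was measured on Affymetrix RAE230A arrays, 154 arrays from 77 rats in 25 groups. The deposited values are 1 intensity per probe set on a linear scale, which the authors had scaled so that each array has the same 2% trimmed mean (150.02 to 150.04, found from the values). The program that summarised the probes is not given in the sources used here. From these intensities, log2(intensity + 7) was computed, where 7 is the 10th percentile of all values, and averaged over chips A and B of an animal. Printed animal values are arithmetic means of the 2 chips. The replicates are separate animals by their numbers. The p-values set a difference against the spread between animals of a group, pooled over all 25 groups, and not against that of the compared animals alone. They do not separate dose from scan day where the groups compared were scanned on different days. The number of animals, 3 in each group compared, limits the precision.

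After the 30% of probe sets with the lowest mean were left out, limma 3.58.1 in R 4.3.3 was fitted to all 25 groups, so that they share 1 estimate of spread. P-values were adjusted by the Benjamini-Hochberg method over 11106 probe sets, with a threshold of 0.05, and errors of log2 fold changes are standard errors. All tests are two-sided. Random scan-day effects used statmod 1.5.0.

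Of 15923 probe sets, 12783 had 1 gene symbol, 312 had several and 2771 had none, and 12748 were matched to current RefSeq names (GRCr8) by gene ID. Each gene is represented by its tested probe set of highest mean. Promoter windows came from RefSeq on GRCr8 and were found for 6713 of 8042 genes. The build was used for names and sequences only.

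Named genes were the 24 largest rises and falls that passed, did not overlap and reached an intensity of 50, up to 6 passing members of each of 43 lists by smallest adjusted p (2 by smallest p where none passed), the 6 largest in each direction of each contrast, and defining markers of the tissue. List members beyond these 6 were named after their values were seen. The members and lists were chosen with earlier results of these data known. The alternatives concerned the offset, the filter, the scaling, chips, animals, weights, scan days, RNA integrity and the control group. These alternatives were chosen after seeing the data: the saline animal of the same scan days as the control, and a fit without isopropyl alcohol replicate 3 and saline replicate 2 of 6 h, the latest scanned of 6 h.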

Additional observations from a re-analysis of the deposited data

Results flagged for a closer look

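The following effects of 6 mg against isopropyl alcohol differed between times by the test of the difference itself in the limma fit, with an adjusted p under 0.05. Values are the log2 effect at 6 h minus that at the other time.

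Against 3 h, the effect at 6 h was higher for Cnr1 by 2.02, for Serpind1 by 1.86, for Rapgef5 by 1.69, for Ccng1 by 1.6, for Mmd by 1.48 and for Aff1 by 1.32. It was lower for Dnajb1 (-1.83), Mad1l1 (-1.72), Map2k6 (-1.51), Ube2e2 (-1.51), Cd3d (-1.46) and Fto (-1.38). For Dnajb1, 6 mg replicate 1 of 3 h stood at 4608, against 234 and 530.5 in the other animals of its group.

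Against 24 h, the effect at 6 h was higher for Esm1 by 2.63, for Scd by 2.18, for Loxl1 by 1.82, for Mcpt1 by 1.81, for Rexo4 by 1.6 and for Apeg3 by 1.59. It was lower for Ankrd44 (-1.87), Veph1 (-1.83), Mgmt (-1.81), Pard3 (-1.78), Ttc28 (-1.78) and Nbas (-1.75). Mgmt and Esm1 passed at 6 h and 24 h with opposite signs, and Mmd did so at 3 h and 6 h.

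Several of these calls were lost in some of the 16 alternatives run for each. Against 3 h they were lost in 13 for Dnajb1, in 12 for Cd3d, and in 7 each for Cnr1 and Mad1l1, which for Cnr1 included scan days as a block (adjusted p = 0.125). Against 24 h they were lost in 10 for Scd, in 9 for Veph1, in 8 for Rexo4, and in 1 each for Loxl1 and Mcpt1. The other 15 kept their call in all 16.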

How the results depend on the processing

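No paired analysis was possible because the replicate letters of the labels mark the 2 chips of one animal, which were averaged, and animal numbers are not shared between groups. Among 177 genes named for 6 mg against isopropyl alcohol, 76 kept their call or lack of a call in every alternative run. Of all named gene values under alternatives, 4043 stayed on their side of the threshold, 655 lost and 26 gained a call. The other 5 reversed against the saline animal of the same scan days, namely Dusp1 (-0.031), Mcl1 (-0.14), Polb (-0.0007), Polr2b (-0.24) and Sv2b (-0.13), and none of these 5 passed there. For 6 mg against isopropyl alcohol (2025 probe sets, 796 higher and 1229 lower), chip B alone gave 478 higher, the 15 animals of 6 h alone 1182 (425 and 757), array weights 3653 (1558 and 2095), scan days as a block 424 higher, saline as the control 3076 (1445 higher), saline and isopropyl alcohol together 3207 (1430 higher) and the saline animal of the same days 864 (262 and 602). Leaving out 1 animal gave 1254 to 1755, with 458 to 661 higher and 796 to 1094 lower, lowest without 6 mg replicate 2, and 514 were higher without isopropyl alcohol replicate 2. Against 3 h (174), quantile normalization gave 41 higher, array weights 157 lower, and scan days as a block 113 (31 higher). Leaving out 1 animal gave 62 to 262, with 27 to 180 higher and 35 to 131 lower. Against 24 h (372), array weights gave 924 (314 and 610), and leaving out 1 animal 215 to 347, with 55 to 107 higher and 160 to 263 lower. Against 3 mg (479), array weights gave 1938 (766 and 1172), and leaving out 1 animal 109 to 683, with 10 to 186 higher and 99 to 497 lower. The causes were not tested. Intensities near 7 cannot be told from background, which limits the size of the falls of Pard3, Veph1, Mad1l1 and Map2k6.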
